A study of Mus musculus with 40 samples.

Results

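The genes described here carry the signal of insulin and insulin-like growth factor (IGF), and 10 of them were examined in whole brain: the ligand Igf1, the IGF-binding protein Igfbp2, the receptors Insr and Igf1r, the adaptors Irs1 and Irs2, the PI3-kinase subunit Pik3r1, the kinases Akt1 and Akt2, and the feedback inhibitor Socs3. Every array probe annotated to one of these symbols was taken, which gave 14 probes among the 25697 on the array, and these 10 genes stand among 16593 genes with a symbol. The animals were male C57BL/6J mice killed at 9 weeks of age, 10 per group, with 1 array of total brain RNA for each of the 40 animals. Groups were named by the diet of the dam, given from before mating until weaning, and then by the diet of the offspring after weaning, each being high fat (HF) or low fat (LF). HF_HF and HF_LF were thus the offspring of HF-fed dams fed HF or LF, and LF_HF and LF_LF the offspring of LF-fed dams fed HF or LF. All groups shared one strain and sex, and the labels give no other treatment. The animals came from 12 breeding cages, 6 per maternal diet, so some were littermates or at least cage mates by birth, and p-values over animals take no account of this.

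Insulin and IGF-1 bind receptors at the cell surface, which phosphorylate the adaptor proteins IRS1 and IRS2. These recruit PI3-kinase, whose product activates the AKT kinases, and AKT in turn acts on glucose uptake, protein synthesis and the FoxO transcription factors. In brain the pathway is known for its roles in neuronal growth and survival and, in the hypothalamus, in the control of feeding and body weight.

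Values were fluorescence intensities normalized by the authors, analysed on the log2 scale. Background was set for each array from 1362 probes of chemosensory receptor genes (olfactory, vomeronasal, taste and trace amine), called receptor probes below. It was their 95th percentile and ran from 81.8 to 91.4. Probes above background in at least 20 of 40 arrays were tested, which left 14350 probes, and 10 probes of 8 member genes were among them. Intensities differ between probes for reasons of probe design, so levels were compared between groups only. Whole brain was the labelled tissue, and 6 of 8 neuronal, 8 of 8 astrocyte and 7 of 8 oligodendrocyte markers were above background. Fewer of the listed region markers were, with 4 of 7 for olfactory bulb and 2 of 6 for cerebellum. In whole-tissue RNA, fewer cells of a type and less RNA per cell cannot be told apart. The arrays of 8 animals (2 HF_HF, 3 HF_LF, 0 LF_HF and 3 LF_LF) correlated less with the rest than the others did.

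The insulin receptor could not be followed. The probe for Insr was above background in 0 of 40 arrays, with intensities of 59.7 to 80.1, so no difference between groups is given. The probe for Snap25, a listed neuronal marker, was above background in 0 arrays too (median intensity 73.75). Whether the Insr transcript was low or its probe insensitive was not tested. The probe for Akt1, the more widely expressed AKT kinase, was above background in 17 of 40 arrays (5 HF_HF, 3 HF_LF, 3 LF_HF and 6 LF_LF) with a median intensity of 85.8, just outside the limit for testing. A further Pik3r1 probe was above background in 7 arrays and a second Akt2 probe in 0. Just inside the limit were Akt2, whose main probe was above background in 29 arrays, and Irs1 with 34 arrays. Socs3 was above background in 39 arrays, and the remaining 7 member probes in all 40.

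**Figure D1:**
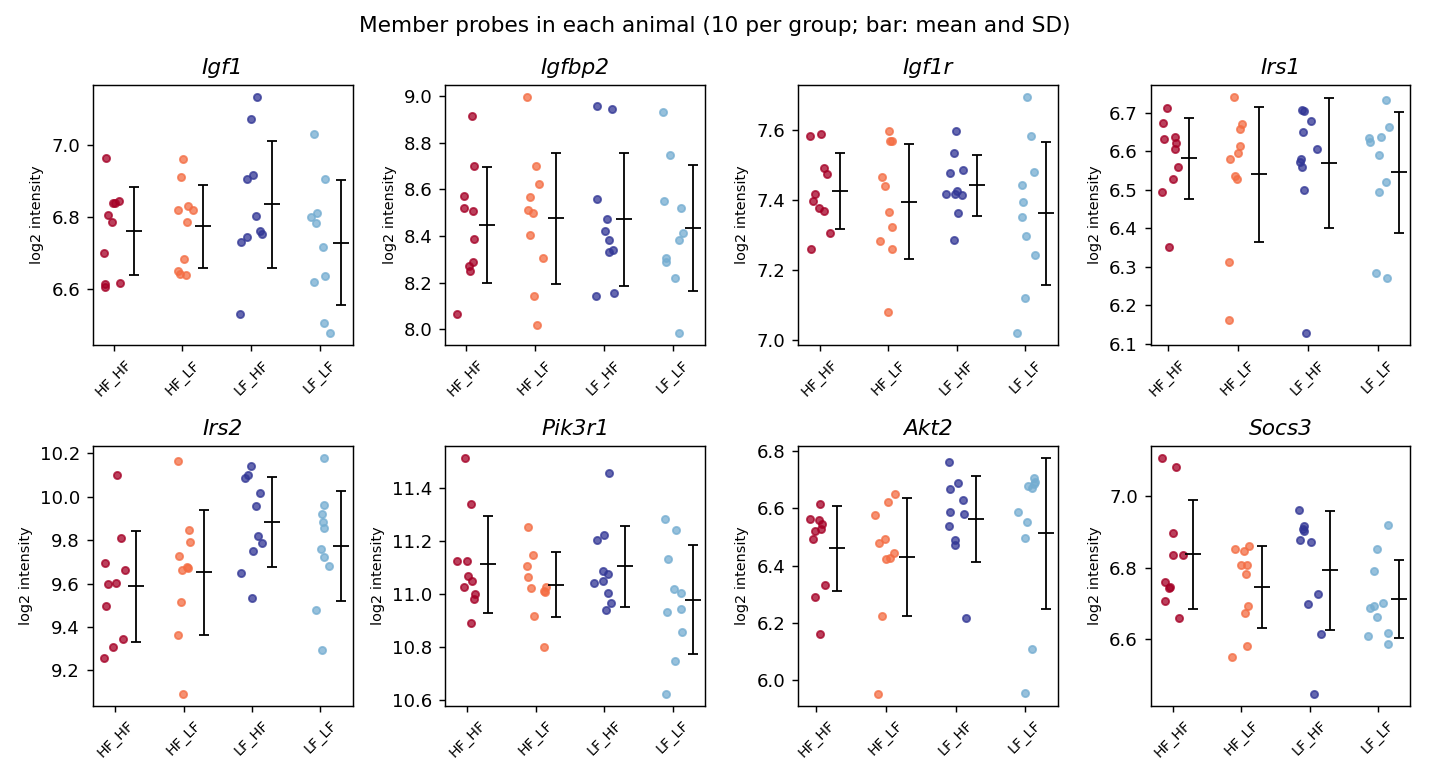
Log2 intensity (vertical axis) of the main probe of the 8 testable members in each of 40 animals, by group; points are animals, and bars give the mean and SD of 10 animals. The 4 groups overlap for every member, and the HF_HF animals lie lower than the LF_HF animals for Irs2.

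None of the members passed the false discovery rate of 0.05 in any comparison, nor did any other tested probe (0% called), and no more than 1 of the 8 had even an unadjusted p under 0.05 in a comparison of diets. For 32 pairings of a member with a diet comparison, the groups overlapped in all 32, and 31 of the 95% intervals held a difference of 0. The exception was Irs2. For the other 7 members, fold differences ran from 0.931 to 1.09, and their intervals lay between 0.817 and 1.22. The interval is the bound that 10 animals per group set on each difference, and it does not show that the groups were alike. The comparisons share groups with each other, so that one group's values enter 2 or more of them.

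Irs2, an adaptor known for its roles in hypothalamic and beta-cell insulin signalling, was lower in HF_HF than in LF_HF brains. The lowest, median and highest intensities were 611, 776 and 1099 in HF_HF, 545, 817 and 1149.5 in HF_LF, 741, 949 and 1131 in LF_HF, and 628, 897 and 1161 in LF_LF. Of the 10 HF_HF animals 9 lay below the LF_HF mean, and the ranges of these groups overlapped. The log2 difference was -0.30 (SE 0.100, 95% interval -0.50 to -0.09), or 0.814-fold (0.705 to 0.94). Its unadjusted limma p was 0.00706 and its adjusted p 0.853, and permuting animals gave p = 0.0122 (two-sided, 100000 resamples). In this comparison 4.44% of all tested probes had an unadjusted p under 0.05 and 0% passed after adjustment. Among 8 members 1 is the smallest count other than none, so no excess over that share can be read from it.

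The Irs2 difference was also read over breeding cages, since the dam was the unit that received the maternal diet. Cage means were 9.38, 9.51, 9.70 and 9.84 on the log2 scale for the 4 HF_HF cages, and 9.73, 9.81, 9.96 and 10.08 for the 4 LF_HF cages. The highest HF_HF cage thus lay above the lower pair of LF_HF cages. The mean of cage means differed by -0.29, with an exact two-sided permutation p of 0.0857 over 70 splits, where 0.0286 is the smallest that this design allows. Without cage 21, which held the 3 HF_HF animals with intensities of 634, 649 and 721, the difference was -0.21 (p = 0.0662), and without cage 23 it was -0.40 (p = 0.000445).

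**Figure D2:**
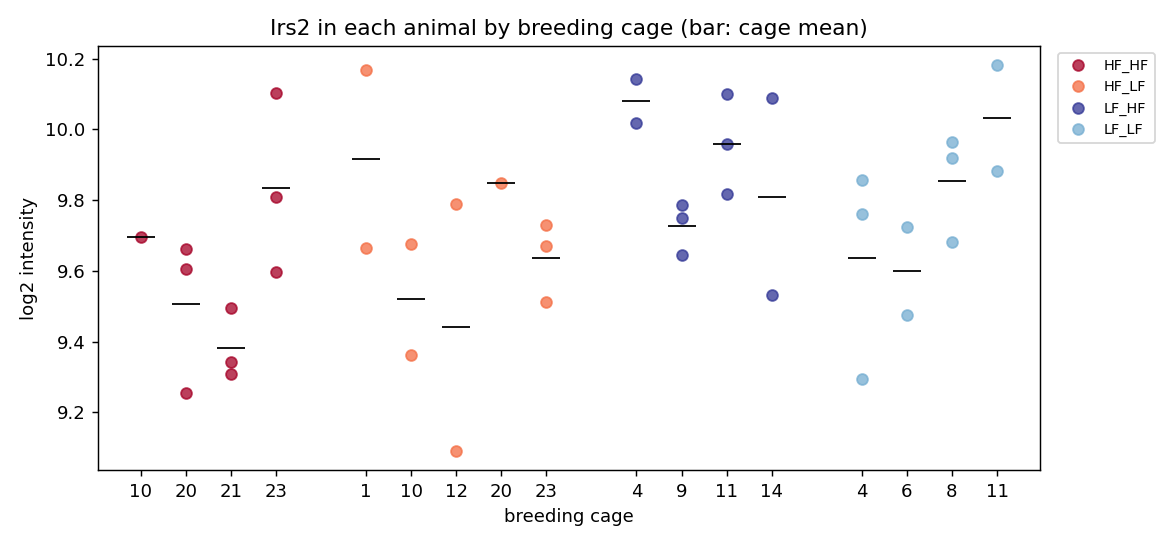
Log2 intensity of Irs2 (vertical axis) in each animal, arranged by breeding cage (horizontal axis) within group; points are animals and bars are cage means. The HF_HF cages average 9.38 to 9.84, and the LF_HF cages 9.73 to 10.08.

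Among LF-fed offspring the maternal diet gave a smaller Irs2 difference of the same sign (HF_LF minus LF_LF -0.12, SE 0.115, p = 0.299, adjusted p = 1.00). The test of the difference between both maternal effects, the interaction, gave -0.17 (SE 0.156, p = 0.270, adjusted p = 0.998), so the maternal effect was not shown to depend on the post-weaning diet. With regard to post-weaning diet, Irs2 was 0.11 higher in LF_HF than in LF_LF (SE 0.0992, p = 0.279) and 0.06 lower in HF_HF than in HF_LF (SE 0.116, p = 0.584). With the breeding cage as a fixed term, LF_HF minus LF_LF was 0.18 and HF_HF minus HF_LF was 0.05. The sign of HF_HF minus HF_LF changed in 3 of 20 alternatives, and its lowest value was -0.23, without the 8 arrays that correlated less with the rest. In order of mean log2 level the groups were HF_HF (9.59 ± 0.26), HF_LF (9.65 ± 0.29), LF_LF (9.77 ± 0.25) and LF_HF (9.88 ± 0.21) (SD, n = 10 each), and neighbours in this order differed by less than their SD.

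The mean of a list of acute-phase genes moved with Irs2 over animals. The mean of 6 of the 7 listed genes (Serpina3n, Osmr, Stat3, Il6st, Junb and Timp1) correlated with Irs2 within groups (r = 0.48, permutation p = 0.00328; rho = 0.34, p = 0.0397; r = 0.49 without the 2 animals farthest from the median), 1 of 110 relations computed between member probes and marker lists. In the HF_HF animals 5 of these 6 genes were lower than in LF_HF, with a median log2 difference of -0.10, and the list mean ranged from 7.80 to 8.14 in HF_HF and from 7.95 to 8.11 in LF_HF. The exception was Serpina3n, which averaged 8.78 in HF_HF and 8.64 in LF_HF. The remaining listed gene, Lcn2, was above background in 17 arrays and so was not in the mean, and it averaged 7.83 in HF_HF and 7.40 in LF_HF. The blood list was lower in HF_HF too (5 of 5 genes, median -0.34, range of the list mean 7.64 to 8.52 in HF_HF and 8.00 to 9.11 in LF_HF), but its correlation with Irs2 within groups was 0.19. The part of either list in the Irs2 difference was not tested.

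The starts of Irs1 and Irs2 are shown because these adaptors gave the smallest unadjusted p among the members, Irs2 for maternal diet and Irs1 for blood glucose. RefSeq start sites (GRCm38.p6) were found for 9 of the 10 members, and the 250 bases before each of their 15 annotated starts were searched on both strands for CACGTG (E-box), GTAAACA (FoxO), TGACGTCA (CRE), TTCNNNGAA (STAT) and GGGCGG (GC box). Both adaptors hold 1 CACGTG, in capitals below, which was 44 bases before the start for Irs2 and 115 bases for Irs1. The windows are on the minus strand at chr8:11008930-11009179 for Irs2 and chr1:82291440-82291689 for Irs1. It was found before 1 Igfbp2 start as well, and in 6.02% of 32851 promoter windows of that length. These are matches of letters, and the arrays did not measure binding.
Irs2: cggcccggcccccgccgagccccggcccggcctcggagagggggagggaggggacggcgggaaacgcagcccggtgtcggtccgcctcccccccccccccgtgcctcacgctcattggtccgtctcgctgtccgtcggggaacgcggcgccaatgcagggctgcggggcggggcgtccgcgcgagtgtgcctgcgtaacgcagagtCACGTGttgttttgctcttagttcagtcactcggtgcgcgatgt
Irs1: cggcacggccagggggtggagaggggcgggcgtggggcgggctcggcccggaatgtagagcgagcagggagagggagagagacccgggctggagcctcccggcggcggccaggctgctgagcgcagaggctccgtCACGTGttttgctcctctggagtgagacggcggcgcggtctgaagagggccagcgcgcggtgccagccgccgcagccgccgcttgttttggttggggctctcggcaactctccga

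The start of Socs3 (chr11:117969367-117969616, minus strand) is shown beside them since the gene is a known target of STAT factors, and it holds 1 TTCNNNGAA, in capitals, at 154 bases before the start. The motif was also found before 1 of the 4 Akt2 starts, and in 7.02% of all windows.
Socs3: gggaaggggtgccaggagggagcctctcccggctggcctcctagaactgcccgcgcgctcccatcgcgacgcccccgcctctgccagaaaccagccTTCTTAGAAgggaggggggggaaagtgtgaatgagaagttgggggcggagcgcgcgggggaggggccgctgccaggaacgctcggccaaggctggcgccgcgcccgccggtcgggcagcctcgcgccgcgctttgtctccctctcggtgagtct

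Of the other motifs, GTAAACA or its reverse complement was found once, before 1 of the 2 Akt1 starts, against 3.17% of all windows, and TGACGTCA before none of the member starts, against 1.55%. GGGCGG stood before 1 or more starts of 8 members, Igf1 being the exception, and in 32.7% of all windows. The first is a count of genes, some with more than 1 start, and the second a share of windows, so they are not like measures. The member windows with this motif held 48.8% to 78.4% G and C, against a median of 52.4% over all windows.

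Igf1, the growth factor that binds Igf1r, gave no difference beyond the spread between animals. The lowest, median and highest intensities were 97.4, 111 and 125 in HF_HF, 99.7, 112 and 125 in HF_LF, 92.4, 110.1 and 141 in LF_HF, and 89.1, 108 and 131 in LF_LF. The ranges overlapped, and those of the offspring of LF-fed dams were the wider ones. The largest difference was that of post-weaning HF in the offspring of LF-fed dams (0.11, SE 0.0759, p = 0.175, adjusted p = 0.717), where 9 of 10 LF_HF animals lay above the LF_LF mean. With the receptor-probe level of each array as a covariate this difference was 0.02.

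Igfbp2, which binds IGFs outside the cell and is abundant in choroid plexus and meninges, varied more between animals of a group than most genes. Its within-group SD of 0.27 on the log2 scale was at the 84.2nd percentile of tested probes, whose median was 0.17. Intensities (lowest, median, highest) were 268, 349 and 482 in HF_HF, 259, 364 and 511 in HF_LF, 282, 338 and 497.5 in LF_HF, and 253, 338 and 489 in LF_LF. No group stood apart, and the differences of both Igfbp2 probes in the 4 comparisons lay between -0.10 and 0.04 with p from 0.276 to 0.836. The probes of this gene followed each other over animals (r = 0.65 within groups).

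Igf1r, the receptor for IGF-1, had a narrow range in animals fed HF. Its intensities (lowest, median, highest) were 153.5, 169.85 and 193 in HF_HF, 135, 169.5 and 194 in HF_LF, 156, 171.5 and 194 in LF_HF, and 129.8, 166 and 207 in LF_LF. The groups overlapped, and in each LF-fed group the range enclosed that of the HF-fed group from the same maternal diet. None of the differences reached p under 0.05, the largest being 0.08 for LF_HF minus LF_LF (SE 0.0712, p = 0.279). That value was 0.16 without cage 11 (p = 0.0377, adjusted p = 0.252), 0.004 without cage 4 and -0.006 without the arrays that stand apart.

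Irs1, the adaptor related to Irs2, gave mean differences no larger than 0.04 in any diet comparison. Its intensities (lowest, median, highest) were 81.6, 97.9 and 105 in HF_HF, 71.6, 96.15 and 107 in HF_LF, 69.9, 96.5 and 104.5 in LF_HF, and 77.2, 97.55 and 106 in LF_LF. These values lie close to background, which 9 of 10 animals exceeded in each HF-fed group and 8 of 10 in each LF-fed group. The interval for maternal diet ran from 0.924- to 1.10-fold in HF-fed offspring and from 0.898- to 1.10-fold in LF-fed offspring.

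Pik3r1, which encodes the regulatory subunit p85 of PI3-kinase, had the largest difference with post-weaning HF in the offspring of LF-fed dams. The lowest, median and highest intensities were 1897, 2131 and 2924 in HF_HF, 1783, 2083 and 2441 in HF_LF, 1965, 2138 and 2805 in LF_HF, and 1577, 2012 and 2490 in LF_LF. All groups overlapped, with the lowest animals in LF_LF. LF_HF exceeded LF_LF by 0.13 (SE 0.0793, 1.09-fold, interval 0.974 to 1.22, p = 0.126, adjusted p = 0.717), and HF_HF exceeded HF_LF by 0.08 (SE 0.0703, p = 0.293). The difference between LF_HF and LF_LF was 0.23 without cage 11 (p = 0.0145, adjusted p = 0.242), 0.04 without cage 4 and 0.04 without the arrays that stand apart. The second Pik3r1 probe gave 0.04 (p = 0.578) and 0.07 (p = 0.359) in the same comparisons.

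Akt2, the AKT isoform known for insulin-stimulated glucose uptake, was lower in the offspring of HF-fed dams in both comparisons, though not beyond the spread between animals. Its lowest, median and highest intensities were 71.5, 92.05 and 98.0 in HF_HF, 61.9, 88.15 and 100.4 in HF_LF, 74.4, 95.9 and 108.5 in LF_HF, and 62.1, 99.1 and 104.4 in LF_LF. The probe was above background in 7 HF_HF, 5 HF_LF, 9 LF_HF and 8 LF_LF animals, so part of each group lay at background. HF_HF minus LF_HF was -0.10 (SE 0.0647, p = 0.127, adjusted p = 0.853), with 8 of 10 HF_HF animals below the LF_HF mean, and it was -0.14 (p = 0.0282, adjusted p = 0.566) without cage 14. HF_LF minus LF_LF was -0.08 (SE 0.0997, p = 0.411), and it became -0.16 (p = 0.0291, adjusted p = 1.00) when the level of the receptor probes on each array was a covariate. Without cage 20, which held the HF_LF animal with the lowest intensity (61.9), it was -0.03 (p = 0.741), and without cage 11 it was -0.04.

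Socs3, an inhibitor induced by cytokines and leptin that blocks insulin receptor signalling, had the smallest within-group spread of the tested members (SD 0.14). Intensities (lowest, median, highest) were 101, 111.25 and 137.9 in HF_HF, 93.8, 111.05 and 116.2 in HF_LF, 87.3, 117.3 and 124.7 in LF_HF, and 96.1, 103.25 and 121 in LF_LF. The highest animals were in HF_HF, and the groups overlapped. Differences for post-weaning HF were 0.09 in the offspring of HF-fed dams (SE 0.0606, p = 0.147, adjusted p = 1.00) and 0.08 in those of LF-fed dams (SE 0.0621, p = 0.210), and in each comparison 7 of 10 HF-fed animals exceeded the mean of their LF-fed counterparts.

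**Figure D3:**
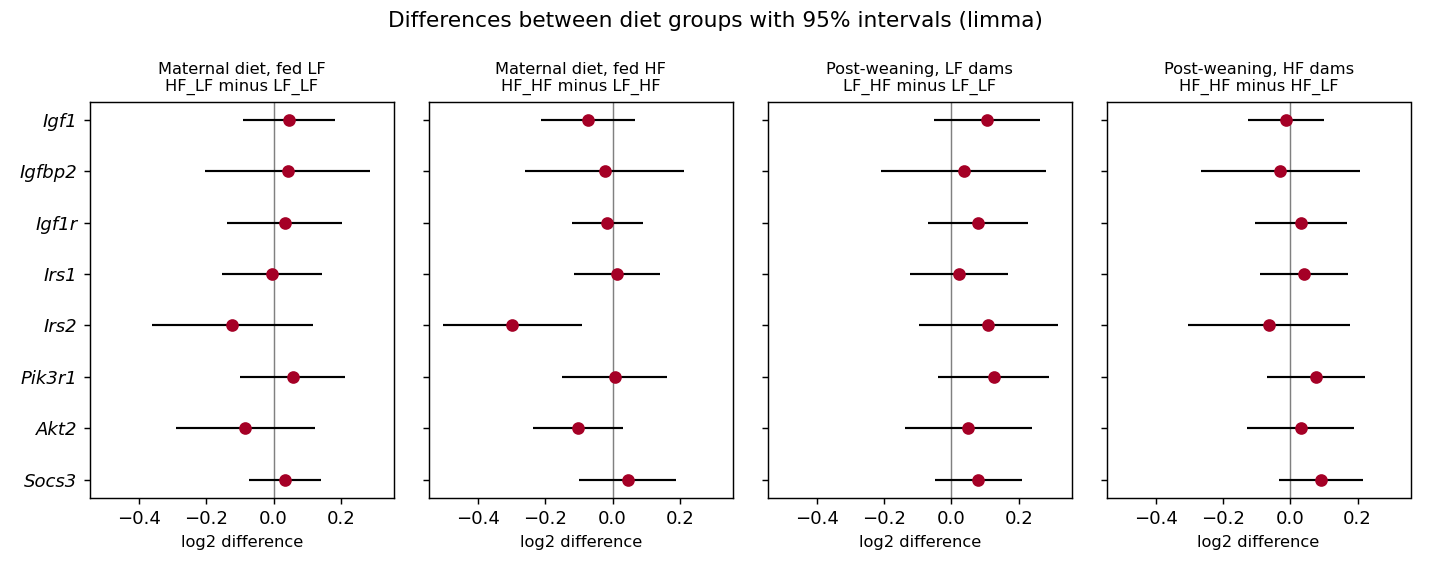
Log2 differences (horizontal axis) of the main probes of 8 members in the 4 diet comparisons; points are limma estimates from 10 animals per group and lines are 95% intervals. Of 32 intervals 31 cross 0, and that of Irs2 in HF_HF minus LF_HF runs from -0.50 to -0.09.

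Seen by comparison, post-weaning HF in the offspring of LF-fed dams was where members leaned one way. All 8 main probes were higher in LF_HF than in LF_LF, by 0.02 to 0.13 with a median of 0.08, and 0 of them had p under 0.05. Among all tested probes 62.0% were higher in LF_HF, with a median difference of 0.03, while 5.53% had p under 0.05 and 0% passed. Some signs turned under other settings. Irs1 (-0.06) and Akt2 (-0.08) were lower in LF_HF with the receptor-probe level as a covariate, and Igfbp2 was lower with its second probe (-0.04), with cyclic loess (-0.003) and with the cage as a fixed term (-0.22). Leaving out single cages turned Igfbp2, Irs1 or Akt2 in 4 of 6 cases. In the offspring of HF-fed dams 5 of 8 members were higher in HF_HF than in HF_LF, against 53.1% of all probes, with 0 members at p under 0.05 against 1.21%, and 0% of probes passed.

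For maternal diet in LF-fed offspring 5 members were higher in HF_LF than in LF_LF and 3 lower, against 50.1% of all probes higher. None had p under 0.05, against 1.38% of all probes, and 0% of probes passed after adjustment. In HF-fed offspring 3 members were higher in HF_HF than in LF_HF and 5 lower, against 42.2% of all probes higher. For the interaction 2 members had a value above 0 and 6 below, against 41.1% of all probes above 0. None of the members had an interaction p under 0.05, against 0.962% of probes, and 0% of probes passed.

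Blood glucose, which the labels give for every animal, averaged 188.5 ± 42.8 mg/dl in HF_HF, 194 ± 24.0 in HF_LF, 222 ± 29.3 in LF_HF and 206 ± 34.6 in LF_LF (SD, n = 10 each). Its relation to each of the 14 member probes was taken within groups, over all 40 animals. In limma, 2 of the 8 main probes had a slope with p under 0.05, against 2.49% of all tested probes, and 0% of probes passed after adjustment. Slopes were above 0 for 7 of 8 members, against 58.0% of all probes.

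Irs1 had the closest relation to glucose. It was higher by 0.08 on the log2 scale per 50 mg/dl (SE 0.0357, limma p = 0.0240, adjusted p = 0.995), with r = 0.36 (permutation p = 0.0166) and rho = 0.44 (permutation p = 0.00773). The sign was positive in each group (r = 0.55 in HF_HF, 0.10 in HF_LF, 0.28 in LF_HF and 0.60 in LF_LF), r was 0.35 without the 2 animals farthest from the median glucose, and 0.36 within cages. Igf1 followed with 0.07 per 50 mg/dl (SE 0.0356, limma p = 0.0444, adjusted p = 0.995), r = 0.33 (permutation p = 0.0441) and rho = 0.28 (permutation p = 0.0963), and r was 0.38 without the 2 farthest animals. Akt2 gave r = 0.30 (permutation p = 0.0607) and rho = 0.17 (permutation p = 0.308), and r was 0.32 without those animals.

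These 3 probes also moved with the receptor probes. The mean level of the receptor probes correlated within groups with Irs1 (r = 0.70), Akt2 (r = 0.68) and Igf1 (r = 0.54), and with glucose itself (r = 0.40). For the other member probes r with this level ran from -0.17 (Insr) to 0.38 (main Pik3r1 probe), with -0.08 for Socs3. With this level taken out, the correlation with glucose was 0.13 for Irs1, 0.14 for Igf1 and 0.04 for Akt2. On the log2 scale the mean receptor-probe level was 6.115 in HF_HF, 6.111 in HF_LF, 6.114 in LF_HF and 6.107 in LF_LF. The part of this level in the glucose relations was not tested further.

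**Figure D4:**
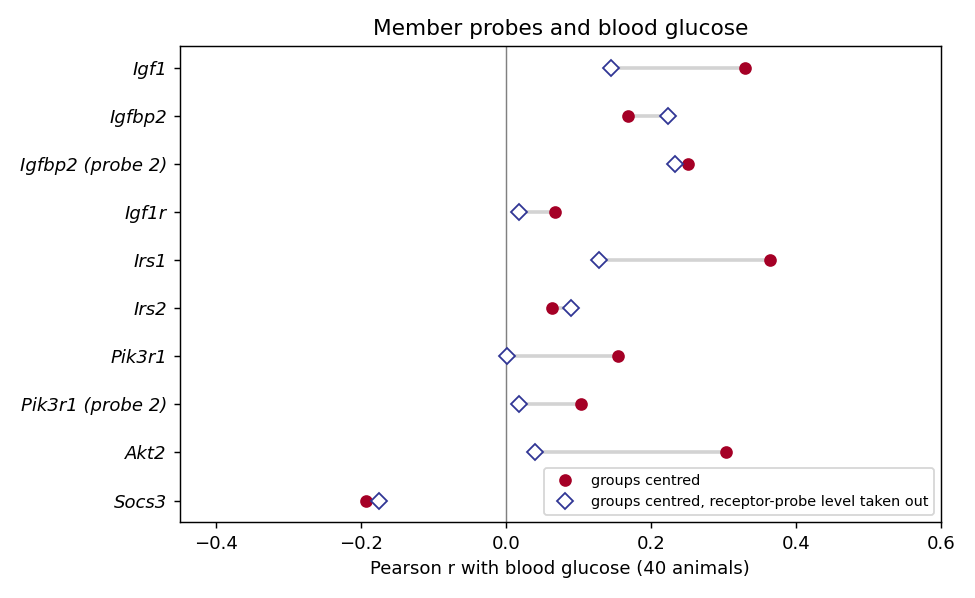
Pearson correlation (horizontal axis) of 10 tested member probes with blood glucose within groups over 40 animals, before (circles) and after (diamonds) the mean level of the receptor probes was taken out. The values before and after are 0.36 and 0.13 for Irs1, 0.33 and 0.14 for Igf1, and 0.30 and 0.04 for Akt2.

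The remaining members showed weaker relations to glucose. For Irs2 r was 0.06 (permutation p = 0.708), for Igf1r 0.07 (permutation p = 0.682), for Igfbp2 0.17 (permutation p = 0.305) and for Socs3 -0.19 (permutation p = 0.263). Pik3r1 had r = 0.15 over all animals (permutation p = 0.385) with opposite signs in the groups fed HF, where it was 0.67 in HF_HF and -0.30 in LF_HF, and the second probe of the gene gave 0.75 and -0.52. That contrast between groups was noticed after the values were seen and was not tested.

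Over the 40 animals some members varied together within groups, among 91 pairs of probes computed. The Pik3r1 probes did so most closely (r = 0.82, rho = 0.81, both with permutation p = 1e-05, the smallest that the resamples allow). Irs1 and Akt2 had r = 0.78 (permutation p = 1e-05) and rho = 0.51 (permutation p = 0.00158), r being 0.79 without the 2 farthest animals and 0.58 with the receptor-probe level taken out. Both probes are near background. The main Igfbp2 probe ran against the main Pik3r1 probe (r = -0.51, permutation p = 0.00123; rho = -0.59, permutation p = 0.00017), the sign being negative in all 4 groups, and r was -0.46 without the 2 farthest animals. With the first 2 principal components of all tested probes taken out as well, r was -0.32 for this pair. The second Igfbp2 probe did not show this relation with the main Pik3r1 probe (r = -0.09, permutation p = 0.578; rho = -0.14, permutation p = 0.416). With the second Pik3r1 probe it gave r = -0.34 (permutation p = 0.0372).

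**Figure D5:**
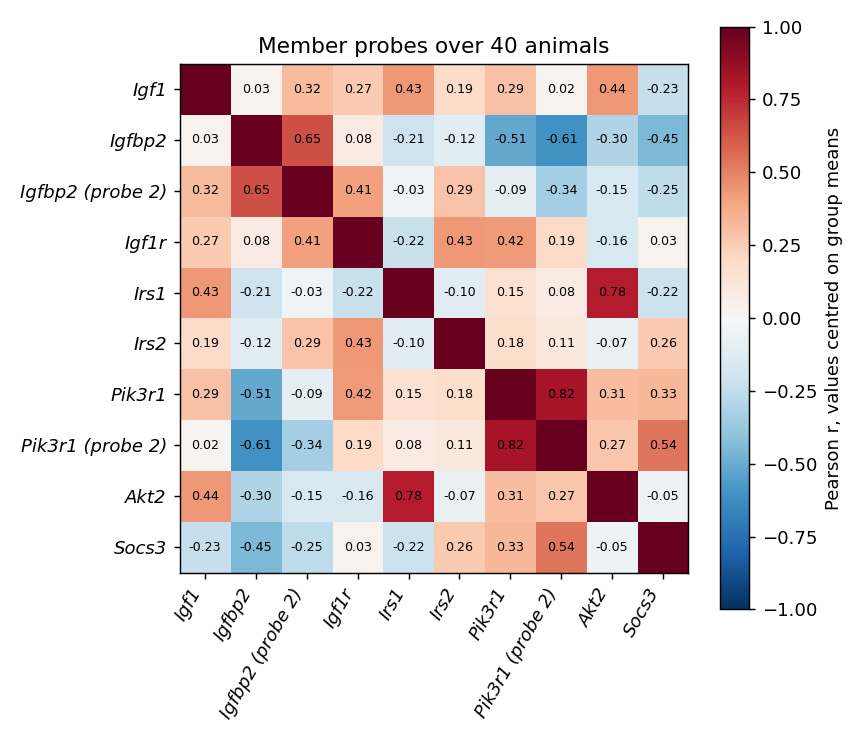
Pearson correlations between 10 tested member probes over 40 animals, values centred on the group means; colour runs from -1 (blue) to 1 (red). The pair of Pik3r1 probes (0.82) and Irs1 with Akt2 (0.78) are the highest. The main Igfbp2 probe gives -0.51 and -0.61 with the Pik3r1 probes, and the second Igfbp2 probe -0.09 and -0.34.

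The same animals also differed in the markers of brain regions and cell types. Choroid plexus transcripts (9 of 12 listed genes above background) had list means from 6.80 to 8.97 in HF_HF, 6.78 to 8.97 in HF_LF, 6.55 to 9.08 in LF_HF and 6.75 to 9.13 in LF_LF. Igfbp2 was higher in animals with more of them (r = 0.53, permutation p = 0.00078; rho = 0.55, permutation p = 0.00081; r = 0.55 without the 2 farthest animals), while Pik3r1 was lower (r = -0.56, permutation p = 0.00025; rho = -0.53, permutation p = 0.00087; r = -0.47 without them). Socs3 was higher in animals with more neuronal transcripts (r = 0.60, permutation p = 0.00015; rho = 0.59, permutation p = 0.00012; r = 0.49 without them) and lower in those with more oligodendrocyte transcripts (r = -0.65, rho = -0.67, both with permutation p = 1e-05; r = -0.62 without them). Other lists gave values of similar size. Socs3 was also higher in animals with more microglial transcripts (r = 0.53, permutation p = 0.00172; rho = 0.60, permutation p = 0.00014). It had r = -0.54 with choroid plexus and -0.46 with cerebellum transcripts. The main Igfbp2 probe had r = 0.52 with oligodendrocyte, 0.52 with olfactory bulb and 0.48 with astrocyte transcripts. The second Igfbp2 probe had r = 0.42 with the choroid plexus list (permutation p = 0.00901), but rho = 0.29 (permutation p = 0.0829). Pik3r1 had r = -0.62 with the cerebellum list, of which 2 of 6 genes were above background, and -0.54 with the astrocyte list. The part of tissue composition in the relations among members was not tested.

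The first principal component of all tested probes held 54.8% of the variance and the second 14.3%. Igf1r followed the first (r = 0.77), while Pik3r1 (0.72), Socs3 (0.64) and Igfbp2 (-0.58) followed the second. Irs2 was less tied to either (0.40 and 0.04).

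For each member the 2 named genes with the most similar profile over the 40 arrays, by Pearson correlation within groups, were looked up. Irs2 was most like Zfhx2 (0.79) and Irf3 (0.78), Igf1r like Sidt2 (0.89) and Cops7a (0.87), and Pik3r1 like Mmp16 (0.86) and Lypd6 (0.84). Igfbp2 was most like Gabarap (0.75) and Tmem59 (0.73), and Socs3 like Nuak1 (0.74) and Lasp1 (0.73). Irs1 was most like Bmx (0.92) and Tram2 (0.89), Akt2 like Fam83g (0.88) and Daam2 (0.88), and Igf1 like Myom1 (0.77) and Fut10 (0.70), and the partners of these 3 had median intensities of 99.7 to 173. Between 436 and 3425 tested probes had r above 0.5 with a given member, the most with Igf1r.

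Beyond the members, 80 other genes of the pathway were listed by role, and 55 had a probe above background. None passed the false discovery rate in any of the 6 comparisons, and 2 (maternal, LF-fed), 2 (maternal, HF-fed), 3 (post-weaning, LF-fed dams) and 2 (post-weaning, HF-fed dams) had an unadjusted p under 0.05, with 0 for the interaction and 0 for glucose. As shares of the 55 these were 3.64%, 3.64%, 5.45%, 3.64%, 0% and 0%, against 1.38%, 4.44%, 5.53%, 1.21%, 0.962% and 2.49% of all tested probes. Their median differences lay between -0.02 and 0.01 in the 5 diet comparisons, against -0.02 to 0.03 for all probes. Ide, the protease that degrades insulin, was lowest in LF_LF, with mean log2 levels of 9.29 in HF_HF, 9.25 in HF_LF, 9.23 in LF_HF and 8.83 in LF_LF. It was 0.42 higher in HF_LF (SE 0.152, p = 0.0119, adjusted p = 1.00) and 0.40 higher in LF_HF (SE 0.114, p = 0.00221, adjusted p = 0.717), both against LF_LF. Slc2a1, the glucose transporter of the blood-brain barrier, was 0.28 lower in HF_HF than in HF_LF (SE 0.0809, p = 0.00200, adjusted p = 1.00) and 0.18 higher in HF_LF than in LF_LF (SE 0.0744, p = 0.0232).

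In HF_HF against LF_HF, the comparison in which Irs2 was lower, the smallest p among the other pathway genes were those of Pdk4, a FoxO target (-0.15, SE 0.0596, p = 0.0234), Eif4ebp1, a translational repressor under mTOR (0.18, SE 0.0832, p = 0.0384), and Gsk3b, a kinase that AKT inhibits (-0.13, SE 0.0622, p = 0.0544), each with an adjusted p of 0.853. Among the rest, Map2k2 in HF_LF against LF_LF (-0.11, p = 0.0560), Eif4ebp2 (0.19, p = 0.0231) and Pik3cd (0.13, p = 0.0430) in LF_HF against LF_LF, and Igfbp4 (0.27, p = 0.0473) and Sgk1 (-0.32, p = 0.0743) in HF_HF against HF_LF were among the 3 smallest p of their comparison. For the interaction these were Pdk4 (p = 0.0939), Ide (p = 0.0990) and Slc2a1 (p = 0.117), and for glucose Grb2 (p = 0.0581), Tsc1 (p = 0.125) and Gsk3b (p = 0.130).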

How the data were processed

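Total RNA of whole brain was hybridised to Illumina bead arrays, 1 per animal. The deposited intensity values had been exported by the authors from BeadStudio and quantile-normalized over the 40 arrays, with no background subtraction visible in the values, so differences of dim probes are likely understated. No detection p-values were used. For analysis log2 was taken of each value with nothing added. Groups, cages and glucose came from the sample labels. Pairs of groups (20 arrays), the interaction and the glucose slope (40 arrays) were fitted with limma 3.58.1 in R 4.3.3 (moderated statistic with mean-variance trend), with Benjamini-Hochberg adjustment over 14350 probes. The number of arrays limits the precision, the median standard error of a pairwise difference being 0.0720 to 0.0761. Of 25697 probes, 23978 had 1 symbol and 1719 none. The main probe of a gene was the one with the highest mean. Named genes were all members, any pathway gene past the threshold and, in a comparison with no such gene, the 3 of smallest p, and the 2 most similar genes per member. Permutation tests were two-sided, within groups for relations. The fit was tested on simulated data. The members and all gene lists were chosen with earlier results of these data known. Alternatives covered normalisation, offset, filter, array weights, components, cages, arrays that stand apart, a regularised t-test after the study's methods, a plain t-test, and, added after seeing the data, the receptor-probe level and cage as covariates. Receptor-probe level means the mean log2 value of the 1362 chemosensory receptor probes on an array. Promoter windows came from RefSeq (GRCm38.p6).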

Additional observations from a re-analysis of the deposited data

Results flagged for a closer look

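Among 60 sets of 10 animals (14 member probes and glucose in 4 groups), 2 held an animal far from the other 9, where chance gives about 1 in 20. The lowest LF_HF animal for Irs1 (cage 14) had a log2 intensity of 6.13 against 6.50 for the next, a gap of 0.642 of the group's range. The lowest LF_LF animal for Akt1 (cage 8) had 6.07 against 6.31 for the next, a gap of 0.516 of the range, and this probe was below background in most arrays.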

How the results depend on the processing

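The 48 member results were recomputed under 28 settings, which gave 1022 values. None of the members passed after adjustment under any setting, 74 of the 1022 values changed sign, and 0 of these had p under 0.05 in the main analysis. The Irs2 difference between HF_HF and LF_HF lay between -0.40 and -0.21, with p under 0.05 in 20 of 21 alternatives, the exception being the fit without cage 21. All of these take animals as the unit. The fit with the cage as a random term used a cage correlation shared by all tested probes. It was estimated at -0.03 and is not a value for Irs2 itself. The exact permutation test over Irs2 cage means, which is not among these alternatives, gave p = 0.0857. The Irs1 slope on glucose had p under 0.05 in 20 of 24 alternatives and the Igf1 slope in 10 of 25. Both slopes were lowest with the receptor-probe level as a covariate. In the units used above, Irs1 then had 0.02 against 0.08 in the main analysis, and Igf1 0.03 against 0.07. The highest p of these slope fits was 0.457 for Irs1 and 0.401 for Igf1. The counts of alternatives thus do not show that either relation holds apart from this level. The number of probes that passed was 0 in each comparison, and it became 1 for post-weaning diet in the offspring of HF-fed dams with cyclic loess, with array weights, with the first component as a covariate and without the 8 arrays that stand apart, and 1 for the interaction without the filter on dim probes. None of these was a member. The cause was not tested. Under a regularised t-test modelled on the study's methods and run on the deposited values, 0 probes passed after adjustment in each pair of groups. Counts of probes at an unadjusted p under 0.05 moved by more than 1.5 times in many settings: between LF_HF and LF_LF 793 became 2133 with array weights, 110 with the cage as a fixed term and 440 with the regularised t-test, and they ran from 354 (without cage 6) to 2658 (without cage 11) when cages were left out in turn. Between HF_HF and LF_HF 637 became 1694 with array weights and 260 with the regularised t-test, and ran from 287 (without cage 4) to 1520 (without cage 21). With the first component taken out, both genes most like Igf1r and Pik3r1 were replaced, and 1 of 2 for each of the other members. No paired analysis was possible because the replicate numbers only name animals. Of the 12 cages 5 held both post-weaning diets, which allowed a comparison within cages. The main post-weaning tests did not use it, and with the cage as a fixed term no member passed. Intensities close to background (Irs1, Akt2, Igf1, Socs3) limit what can be read of these genes.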
